A study of Mus musculus with 3 samples.

Results

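FOXF1 is a forkhead transcription factor of the lung mesenchyme and of the endothelium of its blood vessels, and its binding in the fetal lung was profiled by ChIP-seq. The chromatin came from wild-type C57BL/6 mice at embryonic day 18.5, with 3 whole lungs pooled for each of the 2 biological replicates. The authors called the peaks of each replicate against a 2% input of the same tissue and age. The genes described here are the 4 nuclear factor I genes of the mouse, Nfia, Nfib, Nfic and Nfix, out of 21887 protein-coding genes on the nuclear chromosomes. The genes were listed by name. Their binding sites were selected on the presence of a summit in both replicate lists, as follows. A site counted as shared when a summit of replicate 1 and a summit of replicate 2 were each other's nearest and at most 100 bp apart, and it was placed midway between them. A shared site belonged to a gene when it lay inside it, or within 100 kb of it with an end of that gene as the nearest end of any protein-coding gene. Of 51013 shared sites, 112 (0.220%) belonged to a nuclear factor I gene, 95 of them inside the gene and 17 outside it. These sites defined what was counted, and the genes were picked with results of these data known, so the counts and scores are descriptions without a test.

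Nuclear factor I proteins bind DNA as dimers, each partner contacting one arm of a palindrome, and they activate or repress genes depending on the promoter and the cell. In the mouse, loss of Nfib leaves the lungs immature at birth, loss of Nfia disturbs the midline tracts of the brain, loss of Nfic impairs the growth of tooth roots, and loss of Nfix affects the brain, the skeleton and fetal muscle. Nuclear factor I proteins also act on the surfactant protein C gene. FOXF1 itself is made in mesenchyme and endothelium, and a ChIP signal from whole lung does not tell in which cells a site was bound or whether the gene was transcribed.

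The 112 sites were set against the start-site windows that RefSeq gives on GRCm38.p6, the same assembly as mm10. Each window runs from 250 bases before to 50 bases after a start of transcription. Windows of 3 of the 4 genes were used (Nfia, Nfic and Nfix). In 4 windows a shared site fell inside: at 1 start of Nfic and at the starts of 3 long noncoding RNA genes that lie within or beside a nuclear factor I gene. Their sequences are shown because they are the bound DNA of the family that can be read here. They are written 5′ to 3′ in the direction of transcription, base 251 is the start, and capitals mark the forkhead words TGTTTAC and TGTTTGC or their reverse complements.
Nfic: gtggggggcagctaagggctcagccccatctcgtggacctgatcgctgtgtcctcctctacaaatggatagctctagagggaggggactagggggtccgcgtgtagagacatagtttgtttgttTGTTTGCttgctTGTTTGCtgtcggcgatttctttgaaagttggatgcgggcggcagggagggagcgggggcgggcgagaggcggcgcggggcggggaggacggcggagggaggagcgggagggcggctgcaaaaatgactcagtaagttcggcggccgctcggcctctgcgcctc
Gm19417: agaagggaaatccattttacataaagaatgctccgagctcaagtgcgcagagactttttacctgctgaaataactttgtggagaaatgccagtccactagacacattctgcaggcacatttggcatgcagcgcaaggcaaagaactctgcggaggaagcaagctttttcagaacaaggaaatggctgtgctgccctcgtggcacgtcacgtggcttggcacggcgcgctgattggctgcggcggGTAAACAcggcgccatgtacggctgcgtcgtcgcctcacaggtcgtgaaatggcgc
Gm34784: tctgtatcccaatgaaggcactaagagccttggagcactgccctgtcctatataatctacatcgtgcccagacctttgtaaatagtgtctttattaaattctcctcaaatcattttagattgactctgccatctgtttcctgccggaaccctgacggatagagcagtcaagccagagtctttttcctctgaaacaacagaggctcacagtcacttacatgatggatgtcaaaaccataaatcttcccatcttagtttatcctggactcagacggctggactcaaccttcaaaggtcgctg
G430095P16Rik: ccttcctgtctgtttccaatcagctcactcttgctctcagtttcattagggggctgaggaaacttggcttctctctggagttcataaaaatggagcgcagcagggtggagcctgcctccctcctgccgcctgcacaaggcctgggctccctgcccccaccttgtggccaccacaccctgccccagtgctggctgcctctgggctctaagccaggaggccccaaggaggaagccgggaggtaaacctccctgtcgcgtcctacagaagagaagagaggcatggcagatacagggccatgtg

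The Gm19417 window held a forkhead word almost at the site. It lies at chr4:97868960-97869259 on the minus strand, inside Nfia and opposite to it. The word TGTTTAC, on the reverse strand of the window at bases 245 to 251, had its middle base 10 bp from the site, which was at base 238, between the replicate 1 summit at base 218 and the replicate 2 summit at base 257. The same window held 3 copies of TTGGC, 1 arm of the nuclear factor I palindrome, at bases 120 to 124, 215 to 219 and 232 to 236. The last of these shared 4 of its 5 letters with a CCAAT word on the reverse strand at bases 231 to 235, so those bases cannot be read as 2 separate words.

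The Nfic window, at chr10:81427124-81427423 on the minus strand, held the forkhead word TGTTTGC at bases 125 to 131 and at bases 137 to 143. Their middles lay 162 and 150 bp from the site at base 290. It also held 4 GC boxes (GGGCGG), at bases 173, 193, 214 and 246, of which the last was 41 bp from the site, and neither TTGGC nor CCAAT. The Gm34784 window (chr4:98125848-98126147, plus strand, just beyond Nfia) and the G430095P16Rik window (chr8:84722807-84723106, plus strand, inside Nfix and opposite to it) held neither forkhead word. Their sites were at bases 177 and 268. The GC content was 63.0% in the Nfic window, 53.7% in the Gm19417 window, 44.3% in the Gm34784 window and 60% in the G430095P16Rik window.

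**Figure D1:**
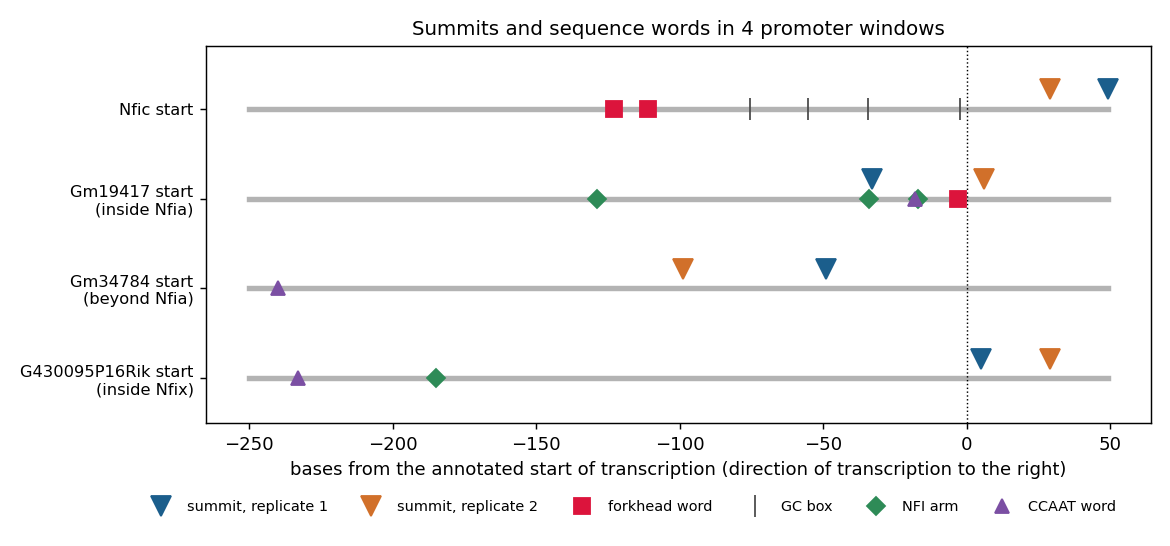
Position of the replicate summits and of the sequence words in the 4 windows that hold a shared site, in bases from the annotated start of transcription (dotted line). Triangles pointing down mark the summits of replicate 1 (blue) and replicate 2 (orange). The forkhead word of the Gm19417 window falls between both summits, and those of the Nfic window lie 150 and 162 bp from the site.

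Single words of this kind are common, and these matches are descriptions of letters. On both strands, TGTTTAC was in 3.65% of all 32851 RefSeq windows, TGTTTGC in 5.07%, either of them in 8.48%, TTGGC in 46.7%, CCAAT in 37.4%, GGGCGG in 35.7% and TATAAA in 13.6%. The full nuclear factor I palindrome, TTGGC followed after any 5 bases by GCCAA, was in 0.0365% of windows and in none of the 9 windows examined (6 of Nfia, Nfic and Nfix, and 3 of the noncoding genes). Over the series, 5162 windows held a shared site. Of these, 7.42% held a forkhead word, 50.9% held TTGGC, 36.4% CCAAT and 67.7% GGGCGG. Of the 5 windows of Nfia and Nfix, which held no shared site, 1 had a forkhead word, TGTTTGC on the reverse strand of the Nfix window at chr8:84772826-84773125, whose start lay 739 bp from the nearest shared site.

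The family differed widely in how many FOXF1 sites its genes carried. Nfib had 54 shared sites, Nfia 36, Nfix 13 and Nfic 9. All 4 genes had at least 1 shared site, as had 60.7% of all protein-coding genes, and 3 of the 4 had at least 10, as had 4.89%. The median was 24.5 sites over the 4 genes and 1 over all protein-coding genes. By the number of sites Nfib ranked 5th, Nfia 32nd, Nfix 585th and Nfic 1071st among the 21887 genes, where the highest count was 76.

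The 2 longest genes had the most sites, but per length the order was another one. Nfia spans 541 kb, Nfib 217 kb, Nfix 96.5 kb and Nfic 35.7 kb. Per 100 kb of gene, Nfic was the densest with 22.4 shared sites inside it, followed by Nfib with 18.9, Nfix with 12.4 and Nfia with 6.29. The order of the first pair turned without replicate 2: with the summits of replicate 1 alone, Nfib had 36.5 per 100 kb, Nfic 30.8, Nfix 24.9 and Nfia 16.5. Without replicate 1, Nfic had 30.8, Nfib 24.5, Nfix 13.5 and Nfia 8.14. Among the 10701 protein-coding genes at least 17.9 kb long, a limit set from the length of Nfic, the median density was 2.19 sites per 100 kb, and Nfic was denser than 99.7% of them, Nfib than 99.4%, Nfix than 96.8% and Nfia than 84.0%. Of these longer genes 76.4% had a shared site and 9.33% had at least 10.

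**Figure D2:**
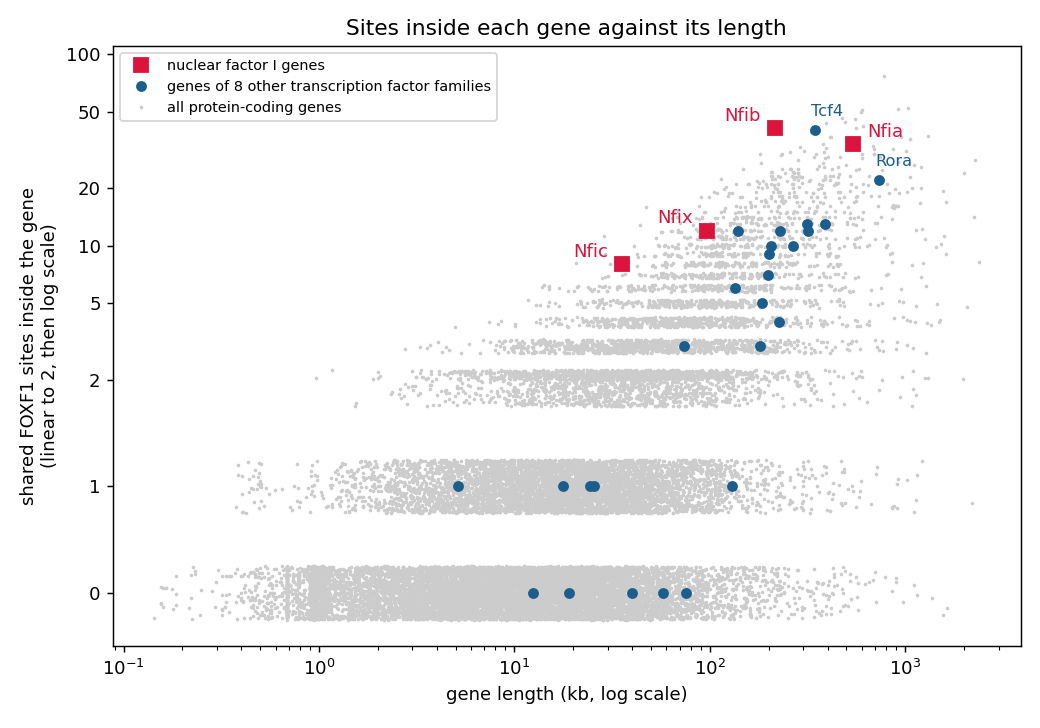
Number of shared FOXF1 sites inside each gene (linear to 2, then log scale) against gene length in kb (log scale), for the nuclear factor I genes (red squares), 26 genes of 8 other transcription factor families (blue circles) and all protein-coding genes (grey, with a small random vertical offset). Nfib (41 sites inside) and Nfic (8) sit near the upper edge for their length. Nfix (12) lies high for its length, but genes of like length hold more, such as Cuedc1 (13). Nfia (34) reaches a similar count to Nfib in a longer gene.

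The score of a site is the authors' −log10 significance of the signal at the summit over the input. It depends on read depth, so it ranks sites within a replicate and was not compared between replicates as a level. Ranks over all shared sites use the mean of both raw scores, in which replicate 1, with its larger scores, weighs more. The 112 sites had a median score of 43.0 in replicate 1 and 16.8 in replicate 2, against 44.1 and 19.1 over all shared sites. The family thus had many sites of about ordinary score: 53 of its 112 sites (47.3%) exceeded the median mean score of all shared sites. By the mean of both scores, 5 of the 112 were among the 1000 highest of all 51013 shared sites, 4 of Nfib and 1 of Nfia. At least 1 such site belonged to 2 of the 4 genes and to 3.09% of all protein-coding genes.

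Nfib, the family member needed for lung maturation in the mouse, held the highest site. Nfib lies on chromosome 4 from 82290173 to 82506751. Its highest site was inside the gene at position 82306243, 16.1 kb from the lower end, scoring 274 in replicate 1 and 130.5 in replicate 2, and it ranked 101st of all 51013 shared sites. It stood above 99.9% of the replicate 1 summits and 99.6% of the replicate 2 summits. The highest site of Nfia came next in the family, in 622nd place. The next 3 sites of Nfib were also inside the gene, spread along it at positions 82436059 with 207 and 99.1, 82359371 with 197 and 103, and 82404338 with 191.0 and 98.4.

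Those 4 sites stood apart in separate groups, 31.7 to 53.1 kb from one to the next along the gene. Counting sites at most 10 kb apart as a group, the largest in Nfib had 15 sites over 45.7 kb, from 82426425 to 82472144, and included the site at 82436059. Groups of 8 sites each covered 20.1 kb around 82359371 and 28.8 kb around 82404338, while the highest site had no other site within 10 kb. Neighbouring sites inside Nfib lay a median of 3178 bp apart, and the longest stretch without a shared site was 18.2 kb. At the higher end of the gene a site at 82506588 lay 163 bp inside, with scores of 89.3 and 64.5.

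Most of the family's sites outside the genes belonged to Nfib, 13 of 17. Of these, 8 lay below its lower end and 5 above its higher end, which was 6.50 sites per 100 kb of the 200 kb outside the gene that were nearest to it. Nfic and Nfix had only 14.2 and 8.73 kb of such DNA, where 1 site each made 7.04 and 11.5 per 100 kb. The highest site outside Nfib, at 82246479, lay 43694 bp below the lower end, with scores of 192 and 86.7, and was above 99.1% of the replicate 1 summits. On the other side a site at 82538540, 31789 bp beyond the higher end and inside the noncoding RNA gene Gm11266, had 122 and 68.6. A further 8 of the sites inside Nfib also lay inside 2310067E19Rik, which RefSeq lists as a miscellaneous RNA overlapping Nfib.

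Nfia carried fewer sites for its length, and its highest-scoring ones lay deep in the gene. Nfia lies on chromosome 4 from 97578066 to 98118876 and is transcribed towards the higher coordinate. The first shared site lay 23.0 kb inside from the lower end, and the start-site window of Nfia (chr4:97581693-97581992) was 19128 bp from the nearest site, counted from its start. The highest site, at 98097734, lay 520 kb into the gene and 21.1 kb before its end, scoring 209 in replicate 1 and 105 in replicate 2, above 99.4% and 98.8% of the summits of each list. It belonged to a group of 6 sites over 18.5 kb, the largest group of Nfia, near the end of the gene.

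Another high-scoring place of Nfia was the start of Gm19417. The site at 97869022, in the window printed above, had scores of 168 and 95.4, and another site 2864 bp further on, at 97871886, had 162 and 74.0. By mean score they ranked next after the highest site of Nfia. Long stretches of Nfia had no shared site: the longest measured 62.5 kb, from 97695181 to 97757659, and the next 59.6 kb, from 97998729 to 98058320. Both held summits of each replicate just beyond the pairing distance. In the longest stretch a replicate 1 summit at 97752107 with a score of 48.9 lay 148 bp from a replicate 2 summit at 97751959 with 42.4. In the next one there were 2 such pairs, of which that at 98049792 and 98049640, 152 bp apart, had 25.4 and 15.5.

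Some sites of Nfia lay at its other noncoding neighbours. Inside Gm38709 there were 3 sites, of which the one at 97772423 had scores of 146 and 84.9, and Gm40208 held 1 site. Outside Nfia there were 2 sites, 1.00 per 100 kb of the 200 kb nearest to it. The nearer one, at 98126024, fell in the Gm34784 window with scores of 73.7 and 32.9.

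Nfix had its highest sites in the later part of the gene and a group of mostly lower-scoring sites near its inner starts. Nfix lies on chromosome 8 from 84704712 to 84801238 and is transcribed towards the lower coordinate. The highest site, at 84741056, lay 60.2 kb into the gene, scoring 157 in replicate 1 and 67.8 in replicate 2. The site at 84723074, in the window of G430095P16Rik and 17 bp from its start, had 107 and 46.4, and the site at 84730047 had 108 and 40.0. These 3 were the highest of the 13, and the other sites of Nfix had scores from 14.1 to 52.8 in replicate 1 and from 2.50 to 29.4 in replicate 2.

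RefSeq gives 4 start-site windows for Nfix that were used here, with starts at 84780082, 84775828, 84773410 and 84772875. A group of 5 sites over 4531 bp, from 84770764 to 84775295, lay near the lower 3 of these starts. The nearest shared site was 533 bp from the start at 84775828, 522 bp from that at 84773410 and 739 bp from that at 84772875, against 4787 bp from the start at 84780082. The highest of the 5, at 84770764, scored 52.8 in replicate 1 and 29.4 in replicate 2, above 79.3% and 69.3% of the summits of each list. The others had mean scores below the median over all shared sites. The first 25.9 kb of Nfix, down from its higher end, had no shared site. Both replicates had a summit in this stretch, at 84800437 with 23.8 in replicate 1 and at 84800319 with 10.2 in replicate 2. They lay 118 bp apart, just beyond the pairing distance.

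The lower end of Nfix overlaps Lyl1, which encodes a basic helix-loop-helix factor of blood and endothelial cells. The 1 site of Nfix that lay outside it, at 84703978, was 734 bp below that end and inside Lyl1, with scores of 17.7 and 10.2. It belongs to Nfix here only because an end of Nfix was the nearest end. The next shared site on that side, at 84701781, belonged to Lyl1 and was higher, with 75.2 and 37.3.

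Nfic, the shortest of the 4 genes, had few sites in number but the highest density of shared sites inside the gene, although with replicate 1 alone it came after Nfib (30.8 against 36.5 summits per 100 kb). Nfic lies on chromosome 10 from 81396191 to 81431919, among many close neighbours, and is transcribed towards the lower coordinate. Its 2 highest sites lay in the middle of the gene, at 81409080 scoring 94.5 in replicate 1 and 57.8 in replicate 2, and at 81412290 with 92.7 and 50.4. They ranked 6868th and 7847th among all shared sites, so no site of Nfic was among the highest of the series. A further site at 81414093 had 47.4 and 33.3, and these 3 closed a group of 6 sites over 12.1 kb.

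The site in the printed Nfic window was low. At 81427134, 39 bp into the transcribed side of the start at 81427173, it had scores of 12.7 and 6.67, the lowest mean of the 9 sites, and only the site at 81405607, with 15.4 and 4.65, was about as low. Upstream of that start, a site at 81429810 had 41.9 and 21.8, and the only site of Nfic outside the gene, at 81434167, 2248 bp beyond its higher end, had 34.8 and 16.9. Only 14.2 kb of DNA outside Nfic were nearest to one of its ends.

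**Figure D3:**
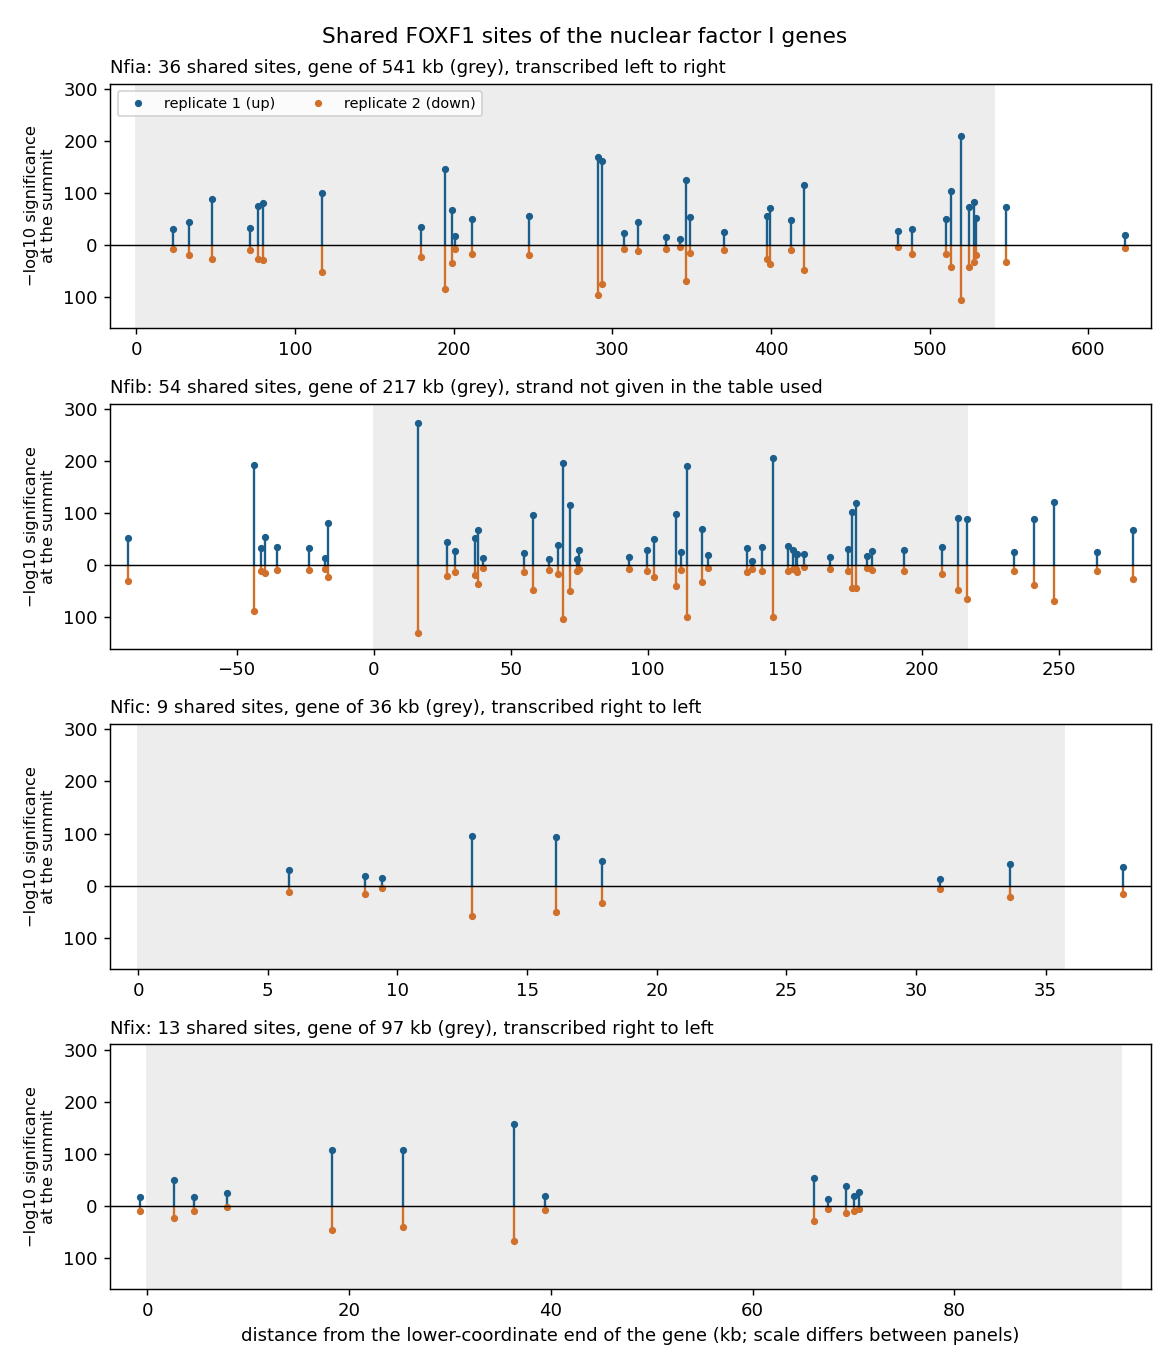
Scores of every shared site along each nuclear factor I gene, as the authors' −log10 significance, drawn upwards for replicate 1 and downwards for replicate 2, against the distance in kb from the lower-coordinate end of the gene (grey area, the gene; the horizontal scale differs between panels). Nfib has sites throughout and on both sides, and the highest site of Nfia lies near its end. The shared sites of Nfix stop 25.9 kb short of its higher end, where unpaired summits of both replicates are not drawn.

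Both replicates ranked the family's sites alike. Spearman's rho of the scores was 0.928 across the 112 sites and 0.883 across all 51013, as a description, since sites of the same 2 libraries are not independent. By gene it was 0.949 over the 36 sites of Nfia, 0.910 over the 54 of Nfib, 0.967 over the 9 of Nfic and 0.814 over the 13 of Nfix. The median distance between paired summits was 14 bp, against 13 bp over the series.

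**Figure D4:**
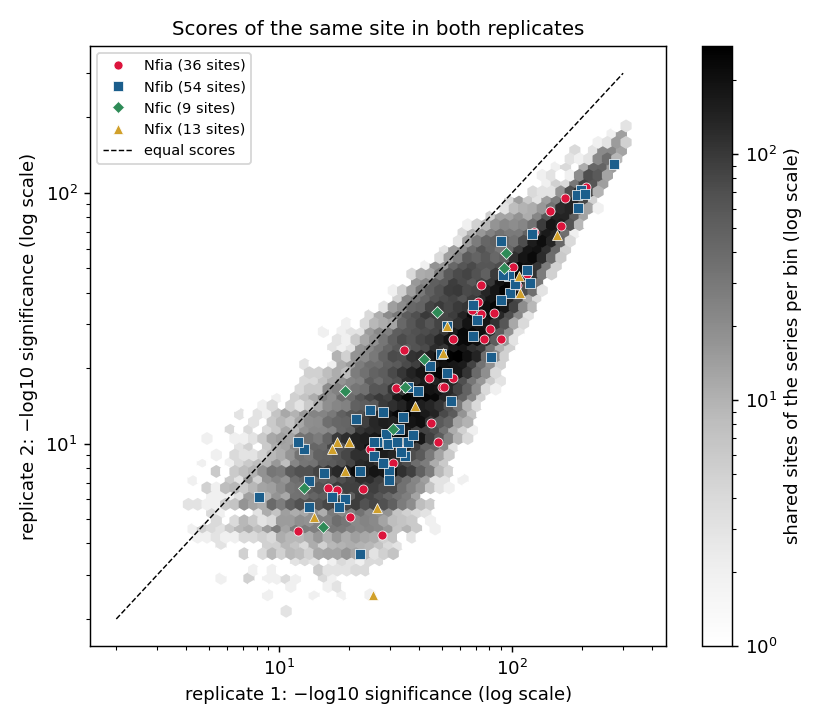
Score of each shared site in replicate 2 against its score in replicate 1 (both −log10 significance, log scales), for Nfia, Nfib, Nfic and Nfix over the density of all 51013 shared sites (grey). The 112 sites follow the band of the series. The dashed line marks equal scores, and since the score depends on read depth the side of the line on which a site lies is not read as a difference.

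Summits without a partner were more frequent in the longer list, as over the whole series. Inside the 4 genes replicate 1 had 203 summits and replicate 2 had 121, of which 46.8% and 78.5% were paired, against 47.5% and 83.4% of each whole list. In replicate 1 the unpaired summits had median scores of 10.8 in Nfia, 7.48 in Nfib, 9.86 in Nfic and 8.86 in Nfix, below the median of 19.9 over the list. Nfix had 12 of 13 replicate 2 summits paired, and the 1 left over had a replicate 1 summit 118 bp away.

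A few unpaired summits scored high. In Nfib, replicate 2 had a summit at 82434121 with a score of 111, above 99.1% of its list, while the nearest replicate 1 summit lay 1939 bp away, at 82436060, where the replicate 2 list had its own partner. In the whole family, 10 further pairs were 101 to 200 bp apart and so just outside the pairing distance, 5 of Nfia, 3 of Nfib and 1 each of Nfic and Nfix. The highest was in Nfia, the other pair in its stretch of 59.6 kb, at 98004108 with 83.1 in replicate 1 and at 98003979 with 40.1 in replicate 2, 129 bp apart. That of Nfix lay 860 bp inside its higher end, in the stretch without a shared site, with 23.8 and 10.2. Just inside the distance, the pair at 81402023 in Nfic was 100 bp apart, with 31.0 and 11.4, and the pair at 82365200 in Nfib was 99 bp apart, with 29.6 and 7.78.

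The 100 kb limit also left sites out. Beyond the higher end of Nfia the next shared site lay 102942 bp away, at 98221818, with scores of 109 and 35.1, and beyond that of Nfib 103128 bp away, at 82609879, with 73.7 and 36.9. Neither belonged to any protein-coding gene. Within the limit, the farthest site of Nfib lay 89531 bp below its lower end, at 82200642, with 52.8 and 29.4, and the farthest of Nfia 82135 bp beyond its higher end, at 98201011, with 20.3 and 5.11.

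Other transcription factor families with long genes were counted in the same way. Of 26 genes in 8 such families, 22 (84.6%) had a shared site, 12 had at least 10, and the median was 8 sites, beside 24.5 for the nuclear factor I genes. The total inside the genes was 4.09 sites per 100 kb in these families and 10.7 in the nuclear factor I genes. The genes with the most sites were Tcf4, an E-protein with 44 (11.6 per 100 kb inside), Rora, a nuclear receptor with 24 (2.99), and Meis1, a homeobox factor with 20 (8.62), while Meis3, Pbx4, Tead3 and Ebf4 had none. Tcf4 thus lay above Nfia in number and density and below Nfib in both. By family the density inside the genes was 8.01 per 100 kb for the E-proteins, 6.15 for MEIS, 4.73 for TEAD, 4.12 for PBX, 3.46 for ZEB, 2.76 for ROR, 2.66 for RUNX and 2.65 for EBF.

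Genes that work on related DNA words or in lung maturation had fewer sites each. The subunits of nuclear factor Y, which binds the CCAAT box and is not related to nuclear factor I, all had sites, 3 at Nfyc and 1 each at Nfya and Nfyb. All 10 transcription factors of lung maturation listed had a site, with a median of 3 and the most at Gata6, an endoderm factor with 7, Nr3c1, the glucocorticoid receptor with 6, and Foxa2, an epithelial forkhead factor with 4, level with Grhl2. All 5 surfactant genes had a site, with 5 at the lipid transporter gene Abca3, 4 at Sftpb and 1 each at Sftpa1, Sftpc and Sftpd. Most of these genes are short, and the shares stand beside 60.7% of all protein-coding genes. Per 100 kb inside the genes, the nuclear factor Y subunits had 4.44 sites and the lung maturation factors 3.33. The surfactant genes had 9.01, from 8 sites inside 5 genes, which was near the 10.7 of the nuclear factor I genes and above Nfia with 6.29.

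By length, number of sites and mean score of the highest site together, the genes most like each member were found among 13284 protein-coding genes with a site, by the smallest sum of the 3 absolute log2 differences. For Nfia these were Mecom, with 44 sites and a sum of 0.38, and Pde4b, with 34 and 0.42. For Nfib they were Rapgef5, with 38 sites and 0.67, and Rbms1, with 32 and 0.80, farther off than the neighbours of the other 3. Nfix was nearest to Nek6, with 13 sites and 0.13, and to Cuedc1, with 13 and 0.14. Nfic was nearest to Rasgef1b, with 9 sites and 0.020, and to Upb1, with 9 and 0.091.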

How the data were processed

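Fixation was in 1% formaldehyde; micrococcal nuclease and sonication sheared the chromatin, of which 10 µg met 7 µg of antibody, per the labels' protocols. MACS2 and mm10 are named in the submitters' processing notes, and per the peak names the authors called 1 list per replicate over the input. Each deposited entry is a summit of 1 base with a −log10 significance, whether of a p-value or q-value not stated. Read depth, aligner and options: not given in the sources used here; no interval is given. The lists held 107378 and 61172 summits on chromosomes 1 to 19, X and Y.

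Summits were paired and assigned with Python 3.11.15, numpy 2.4.6 and pandas 2.3.3, tested on simulated data. Positions are 1-based. Gene bounds were those of RefSeq (49943 genes, GRCm38.p6), without exons or strand, so sites were not placed in exons, introns or UTRs. The direction of the start-site windows was checked: TATAAA fell at the usual distance before the start in 299 plus-strand and 288 minus-strand windows, against 64 and 77 in the mirrored stretch.

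The members and lists were chosen with earlier results of these data known. In each list the 3 genes with the most sites and those with none are named, with the 2 genes most like each member; noncoding, host and bordering genes are named by position. Alternatives were the pairing distance, a score minimum, the highest summits, each replicate alone and the gene's territory.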

Additional observations from a re-analysis of the deposited data

How the results depend on the processing

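The 4 counts were recomputed under 9 alternatives, and 27 of the 36 values stayed within 1.5 times of those reported. With the 10000 highest summits of each replicate the counts were 7 for Nfia, 10 for Nfib, 2 for Nfic and 2 for Nfix; all 4 genes had such a site, as had 16.6% of protein-coding genes. With a score of at least 10 in each replicate, Nfix had 8 sites. With each replicate list alone, Nfia had 46 to 99 summits, Nfib 76 to 106, Nfic 12 to 14 and Nfix 15 to 25, the higher value being that of replicate 1, whose list is longer. Fewer summits enter under the first 2 settings and unpaired summits under the last. Nfib had the most sites in all 10 settings and Nfia came next, while Nfix and Nfic were level with the 10000 highest summits. The mean score of the highest site was the same in all 4 genes under both other pairing distances, the score minimum and the 10000 highest summits, and a single list gives no such mean. The summits of these 4 sites lay 1 to 23 bp apart and scored high in both lists. Those settings could therefore hardly have changed the value, and this is no check of stability. Of 24 densities inside the genes, 11 moved by more than the spread between the replicate lists, 6 of them of Nfic, where both lists had 11 summits and the spread was 0. That spread was the standard deviation of the single-list densities, which are themselves among the 24. The tally therefore does not measure how robust the densities are. The density order of Nfic, Nfib, Nfix and Nfia held in 5 of the 6 settings that gave one and turned with replicate 1 alone, where Nfib had 36.5 per 100 kb, Nfic 30.8, Nfix 24.9 and Nfia 16.5. No paired analysis was possible because the input has no list of its own here and a single group of 2 replicates was described.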
